A study of Bos taurus and Bos indicus x Bos taurus with 938 samples.

Results

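Blocks 1 and 12 are the largest of 29 stretches of consecutively numbered regions that tended to be open in the same blastomeres of bovine embryos. Block 1 holds rows V1 to V17000 and block 12 holds rows V109601 to V125100 of a table of open calls. Members were selected on their row totals and are the rows open in 98 or fewer columns, under 12% of all blastomeres in the table. That left 16552 of 17000 rows in block 1 and 14982 of 15500 rows in block 12, together 31534 members, or 10.4% of all regions in the table. The blocks were drawn from the joint opening of neighbouring rows. Row totals and joint opening are therefore given only as description.

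Accessible chromatin was mapped by ATAC-seq, blastomere by blastomere, in embryos made by somatic cell nuclear transfer (SCNT) or by in vitro fertilisation (IVF). The compared groups were SCNT and IVF embryos labelled as 2-, 4- and 8-cell, with no further treatment given in the labels. Both types came from oocytes of abattoir ovaries matured in vitro, and their blastomeres were separated and each put in a tube of its own. The donor cell of the nuclear transfer is not given in the sources used here. SCNT libraries carry the organism label Bos taurus and title prefixes 15243 and 15244, and IVF libraries carry Bos indicus x Bos taurus and prefixes 15286 and 15287, so type, breed and prefix cannot be told apart.

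In ATAC-seq the Tn5 transposase cuts and tags DNA where chromatin lets it in, so a tagged fragment marks accessible DNA. A single cell holds very few copies of each locus, and most accessible sites leave no fragment in a given library. In SCNT the oocyte has to reset the chromatin of a somatic nucleus, whereas after fertilisation it meets the gametes' chromatin. In cattle the main activation of the embryonic genome falls around the 8-cell stage.

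Each value in the table is 0 or 1 and was taken as a closed (0) or open (1) call. The regions carry running numbers only, so which part of the genome a block stands for, and which genes lie in it, is not given, and no sequence can be shown. Columns were tied to libraries by the runs of their numbers, an inference that no label or header states. The assignment of blastomeres to embryos rests on it. Over V1 to V274100, the stretch that holds the 29 blocks, blastomeres had a median of 6283 open calls and at most 114049. Those with 2000 or more such calls were used, 338 blastomeres of SCNT and 343 of IVF embryos, from 210 embryos in all. At 2 cells 40.8% of SCNT and 8.53% of IVF blastomeres were under that minimum. Median totals of the blastomeres used were 4594.5, 4269 and 6468 calls in SCNT at 2, 4 and 8 cells, and 8029, 8011 and 12035 calls in IVF.

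Members were rarely open. They had a median of 18 open columns in block 1 and 19 in block 12, and the least open had 5 columns in each. Members held 84.3% of all open calls of block 1 and 82.1% of those of block 12. At the threshold, 13 rows of block 1 lay just inside at 98 columns and 13 just outside at 99 columns. In block 12 these counts were 11 and 6 rows. The median correlation of neighbouring stretches over blastomeres was 0.784 inside block 1 and 0.796 inside block 12, which describes how the blocks were drawn.

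Coverage below is the number of open calls among a block's members divided by the number expected from that blastomere's total over V1 to V274100, so that 1 is the expected value. It is a relative measure, not read coverage, and more calls in 1 block mean a lower value elsewhere. A blastomere at the minimum of 2000 calls had 92.8 expected calls in block 1 and 87.2 in block 12. The embryo was the replicate and its value was the mean over its blastomeres. Nothing says that the embryos came from separate matings or donor cultures, so p-values measure the spread between these embryos.

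At 2 cells coverage of block 1 was higher in SCNT than in IVF, and no other comparison of type or stage passed for either block. The lowest, median and highest values in SCNT 2-cell embryos were 0.351, 1.21 and 3.79, and in IVF 2-cell embryos they were 0.0531, 0.862 and 2.58. The groups overlapped widely, but 23 of 30 SCNT embryos and 19 of 65 IVF embryos lay above 1. The means were 1.32 ± 0.578 in SCNT and 0.875 ± 0.403 in IVF (SD, n = 30 and 65), a difference of 0.441 (two-sided permutation test, adjusted p = 0.00261 over 29 blocks and 9 comparisons). Of these embryos, 12 of 30 in SCNT and 53 of 65 in IVF had both blastomeres in use. Each other value rests on 1 blastomere. Block 1 was the only block called in this comparison, 3.45% of the 29 tested, and 4 blocks had an unadjusted p under 0.05.

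The difference in block 1 at 2 cells did not pass under 3 of the alternatives. With a minimum of 1000 calls it was 0.362 (adjusted permutation p = 0.0705). With only the embryos whose blastomeres were all in the table and over the minimum it was 0.305, over 12 SCNT and 53 IVF embryos (adjusted permutation p = 0.552). Without blastomeres that lacked any of the 29 blocks it was 0.350 (adjusted permutation p = 0.0539, 27 and 31 embryos). SCNT embryo 35, whose single blastomere in use had the highest value of both blocks in its group, was left out in an alternative added after seeing the data, and the difference was then 0.355 (adjusted permutation p = 0.0104). Its blastomere had 2514 member calls of block 1, which made up 18.5% of its total.

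SCNT and IVF have no prefix in common. The SCNT 2-cell mean of block 1 was 1.32 both in the 25 embryos of prefix 15243 and in the 5 of prefix 15244. The IVF 2-cell mean was 0.870 in the 62 embryos of prefix 15286 and 0.990 in the 3 of prefix 15287. Coverage of block 1 and the blastomere's total had a Spearman's rho of 0.184 over 42 SCNT 2-cell blastomeres and 0.0548 over the IVF 2-cell blastomeres of 65 embryos, as a description. With each blastomere thinned to 2000 calls the difference was 0.437 (adjusted permutation p = 0.00652). Thinning draws from the calls that a blastomere has, so it keeps the share of a block in expectation. It therefore cannot show the part of depth in the result, which was not tested.

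**Figure D1:**
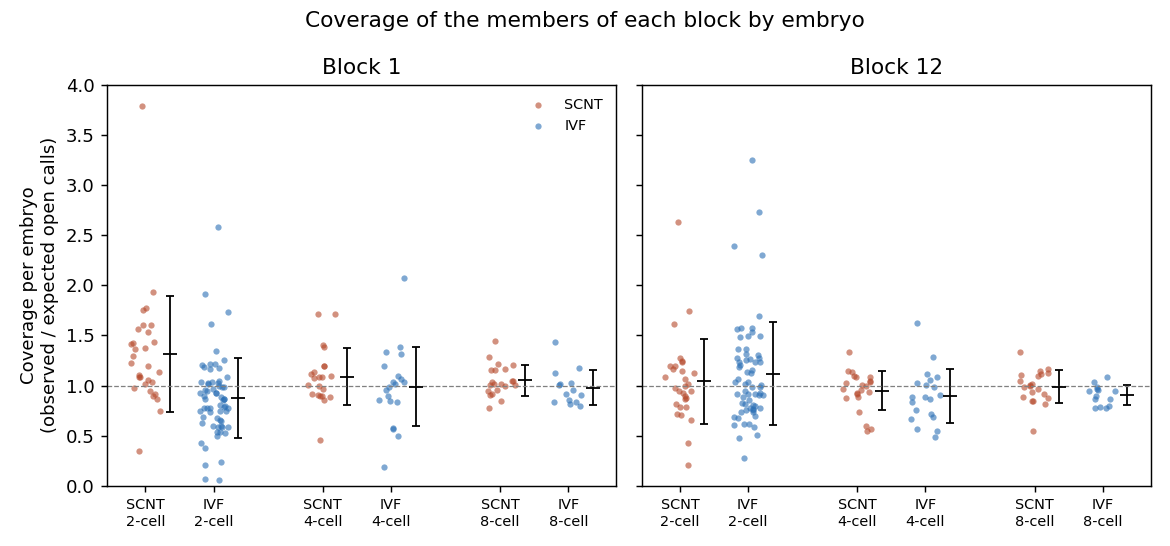
Coverage of the members of block 1 (left) and block 12 (right) in each embryo, the y axis being observed over expected open calls; points are embryos, bars are mean ± SD, SCNT in red and IVF in blue. At 2 cells the SCNT mean of block 1 is 1.32 and the IVF mean 0.875, while the other pairs of groups lie closer together.

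At 4 cells block 1 averaged 1.09 ± 0.281 in SCNT and 0.988 ± 0.394 in IVF embryos (SD, n = 22 and 20, adjusted permutation p = 0.853). Where an embryo number recurred under another prefix or cell number, the sets of blastomeres were counted as separate embryos. The lowest IVF 4-cell value, 0.183, came from such a case, a lone blastomere labelled 4-cell whose embryo number and prefix are also those of 3 blastomeres labelled 3-cell. Without recurring numbers the 4-cell difference of block 1 was 0.0590, over 22 SCNT and 18 IVF embryos (adjusted permutation p = 0.931). At 8 cells it averaged 1.05 ± 0.155 in SCNT and 0.978 ± 0.175 in IVF embryos (SD, n = 21 and 14, adjusted permutation p = 0.788). In both types the spread between embryos was smaller at 8 cells than at 2 cells, where an embryo's value averages fewer blastomeres; this was not tested. The SCNT 8-cell embryos ran from 0.775 to 1.44 and the IVF 8-cell embryos from 0.792 to 1.43, almost the same range. The change between 2 and 8 cells, SCNT minus IVF, was -0.364 in block 1 and missed the threshold (permutation test within stage, adjusted p = 0.0751). It passed under 3 alternatives, and without SCNT embryo 35 it was -0.279 (adjusted permutation p = 0.209).

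Block 12 showed no such difference at 2 cells. Its lowest, median and highest values were 0.212, 0.990 and 2.63 in SCNT embryos, and 0.273, 1.01 and 3.25 in IVF embryos. The means were 1.04 ± 0.428 in SCNT and 1.12 ± 0.514 in IVF embryos (SD, n = 30 and 65), a difference of -0.0753 (adjusted permutation p = 0.900). At 4 cells they were 0.950 ± 0.195 in SCNT and 0.900 ± 0.269 in IVF embryos (SD, n = 22 and 20, adjusted permutation p = 0.900). At 8 cells they were 0.990 ± 0.164 in SCNT and 0.906 ± 0.0976 in IVF embryos (SD, n = 21 and 14, adjusted permutation p = 0.748). Whether block 1 and block 12 differed in their response to type was not tested.

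No stage comparison within a type passed in either block. In SCNT, block 1 was lower by 0.262 at 8 than at 2 cells (adjusted permutation p = 0.689). In IVF, block 12 was lower by 0.211 at 8 than at 2 cells (adjusted permutation p = 0.784). Nearly all IVF 2-cell embryos carry prefix 15286 and all IVF 8-cell embryos 15287. Within prefix 15287, with 14 8-cell and 3 2-cell embryos, the difference of block 12 was -0.403 (exact permutation test, adjusted p = 0.0426).

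At 2 cells SCNT coverage was highest in the least open rows, within block 1 and outside it. The classes are cut on the row totals that also select members. Among the least open rows of block 1, those with 5 to 12 open columns, mean coverage at 2 cells was 1.69 ± 1.01 in SCNT and 0.872 ± 0.481 in IVF embryos (SD, n = 30 and 65). Among members with 51 to 98 open columns it was 0.996 ± 0.382 in SCNT and 0.775 ± 0.315 in IVF embryos. The rows of block 1 above the threshold, which are no members, had 0.897 in SCNT and 0.732 in IVF embryos. SCNT values were thus lower in each more open class. The other 27 blocks had a like gradient in SCNT embryos, with 1.39 in rows of 5 to 12 columns and 0.817 in rows of 51 to 98 columns. In IVF embryos the same classes of the other 27 blocks had 1.06 and 0.916. There SCNT was thus above IVF in the less open class and below it in the more open one. Taking the expected calls from the total of rare rows only left a difference of 0.394 for block 1 at 2 cells (adjusted permutation p = 0.00261). These classes were described and not tested.

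Block 12 had the same gradient in SCNT 2-cell embryos, with 1.30 ± 0.774 in rows of 5 to 12 columns and 0.879 ± 0.319 in rows of 51 to 98 columns. The IVF values there were 1.14 ± 0.644 and 0.964 ± 0.397. At 8 cells the classes of block 1 lay between 0.965 and 1.17 in SCNT and between 0.929 and 1.07 in IVF embryos.

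Along block 1, the SCNT mean at 2 cells was above the IVF mean in 17 of 17 bins of 1000 rows. The differences ran from 0.168 to 0.686 with a median of 0.465. SCNT coverage was highest in the bin of rows 14001 to 15000, at 1.65 ± 0.202, where IVF was at 0.963 ± 0.0668 (SE over embryos). At 8 cells the SCNT mean was above the IVF mean in 11 of 17 bins, and the differences ran from -0.264 to 0.425. The SCNT mean lay below the IVF mean in the first 5 bins and in the eighth, and above it in the others. Along block 12, the SCNT mean lay above the IVF mean in 5 of 16 bins at 2 cells and in 11 of 16 at 8 cells. Bins within a block share embryos and are not independent.

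**Figure D2:**
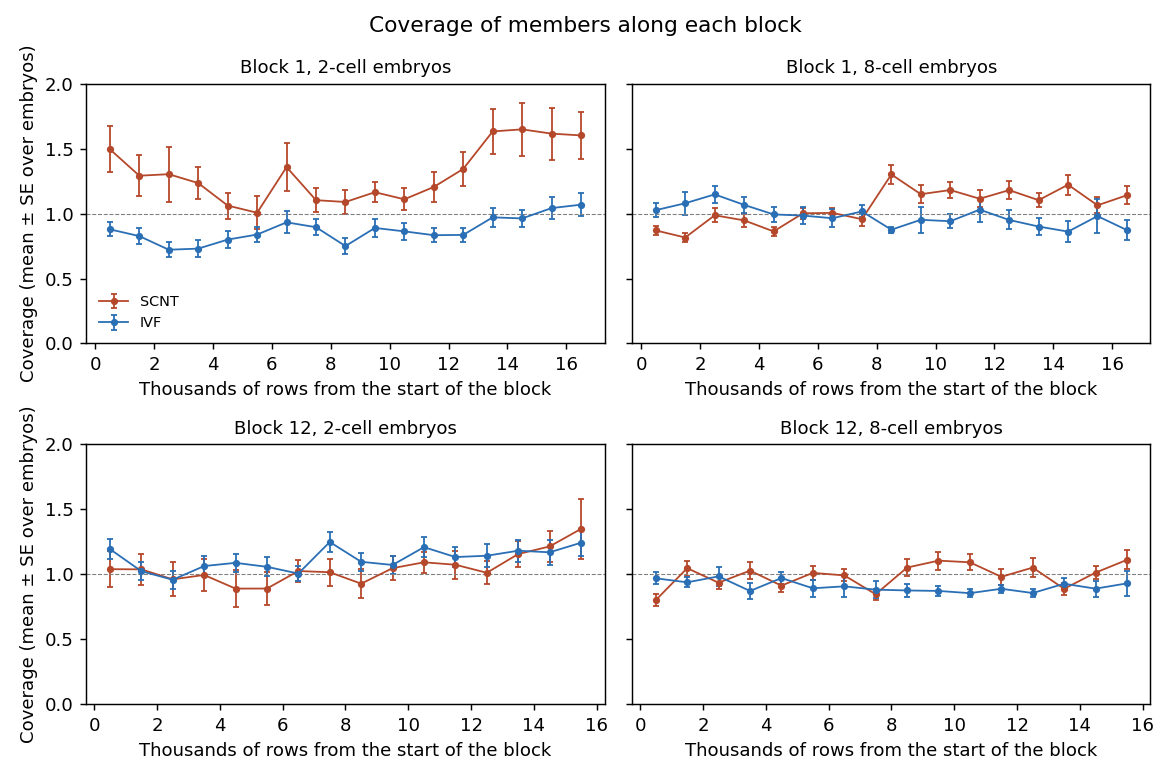
Mean coverage ± SE over embryos in bins of 1000 rows along block 1 (top) and block 12 (bottom), for 2-cell (left) and 8-cell (right) embryos; the x axis is the distance from the start of the block in units of 1000 rows. In block 1 the SCNT line lies above the IVF line in 17 of 17 bins at 2 cells and in 11 of 17 at 8 cells.

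A block was called absent in a blastomere where its coverage was under 0.1. Block 1 or block 12 was absent in 1 of 338 SCNT blastomeres (0.296%) and in 36 of 343 IVF blastomeres (10.5%), which came from 26 IVF embryos. In 2-cell embryos block 1 was absent in 0 of 42 SCNT blastomeres and in 10 IVF blastomeres (8.47%), and block 12 in 0 of 42 SCNT blastomeres and in 15 IVF blastomeres (12.7%). The exact 95% binomial interval of the IVF share was 4.14 to 15.03% for block 1 and 7.29 to 20.1% for block 12. For the 0 of 42 SCNT blastomeres that interval reaches 8.41%, and the limit of 3 counts is 7.14%. Intervals and limits cover counting error only and take blastomeres as independent, which those of 1 embryo are not.

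Per embryo, the percent of blastomeres lacking block 12 at 2 cells was 0 in SCNT and 11.5 ± 21.2 in IVF embryos (SD, n = 30 and 65), which did not pass (adjusted permutation p = 0.424, unadjusted p = 0.00407). For block 1 it was 0 in SCNT and 8.46 ± 22.7 in IVF embryos (SD, n = 30 and 65, adjusted permutation p = 0.763). By the permutation test, 0 of 29 blocks passed for this measure at 2 cells (0%), while 13 had an unadjusted p under 0.05. Both counts lay within the range over the 29 blocks, where the number of IVF 2-cell blastomeres lacking a given block ran from 6 to 17 with a median of 12.

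Absence at 4 and 8 cells was concentrated in few embryos. At 4 cells block 1 was absent in 1 of 58 SCNT and 4 of 62 IVF blastomeres, and block 12 in 1 of 58 SCNT and 2 of 62 IVF blastomeres. The SCNT case was 1 blastomere that lacked both blocks and 15 others. The IVF 4-cell cases came from 2 embryos. At 8 cells SCNT had 0 cases for each block, which allows up to 2.93% of its blastomeres by the exact 95% interval and 2.42% by the limit of 3 counts, and the 3 IVF cases were all in 1 embryo, which had 2 blastomeres without block 1 and 1 without block 12.

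Absence of these blocks seldom stood alone. Of the 37 blastomeres lacking block 1 or block 12, 7 lacked both and 2 lacked 1 of them and no other block. The median number of other blocks absent in these blastomeres was 7 and the highest 19. Both of the lone cases were IVF 2-cell blastomeres. In all, 2.37% of SCNT and 48.4% of IVF blastomeres lacked at least 1 of the 29 blocks.

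Across the blastomeres of a group, the coverages of block 1 and block 12 were only weakly related, as a description. At 2 cells Pearson's r was 0.485 over 42 SCNT blastomeres and 0.0300 over the IVF blastomeres of 65 embryos, with Spearman's rho of 0.149 in SCNT and 0.0250 in IVF. At 8 cells r was 0.260 over the SCNT blastomeres of 21 embryos and -0.165 over 89 IVF blastomeres. Both coverages are shares of the same total and blastomeres of 1 embryo are not independent.

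**Figure D3:**
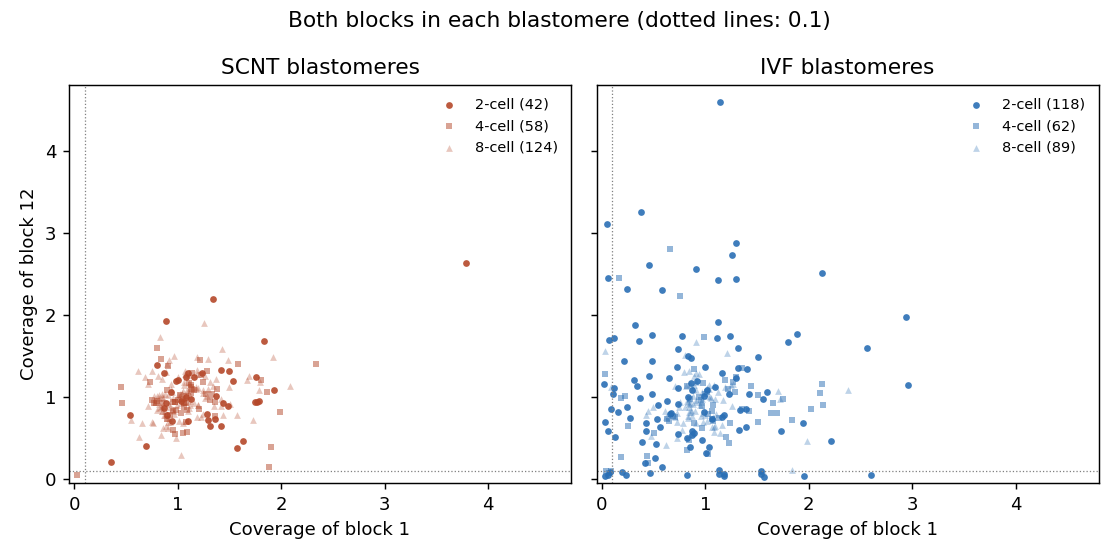
Coverage of block 12 (y axis) against coverage of block 1 (x axis) in each blastomere of the 2-, 4- and 8-cell groups, SCNT left and IVF right, with dotted lines at 0.1, under which a block was called absent. Among these blastomeres 1 of SCNT and 29 of IVF embryos lie below a dotted line, most of them from IVF 2-cell embryos.

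Sister blastomeres of IVF 2-cell embryos tended to lie on opposite sides of the expected value. Over 53 IVF pairs Pearson's r between sisters was -0.212 for block 1 and -0.579 for block 12, each pair entered in both orders. Over 12 SCNT pairs it was 0.270 for block 1 and 0.205 for block 12. Block 12 had the lowest r of the 29 blocks in IVF, whose values ran from -0.579 to -0.0994 with a median of -0.339. These r values are descriptions, and their difference between types was not tested. Sisters lay on opposite sides of 1 in 5 of 12 SCNT and 38 of 53 IVF pairs for block 1, and in 6 of 12 SCNT and 37 of 53 IVF pairs for block 12.

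Large differences between sisters were common in IVF. One sister had over 2 times the coverage of the other in 1 of 12 SCNT and 33 of 53 IVF pairs for block 1. For block 12 the counts were 2 of 12 SCNT and 35 of 53 IVF pairs. The median difference between sisters was 0.317 in SCNT and 0.756 in IVF pairs for block 1, and 0.368 in SCNT and 0.833 in IVF pairs for block 12. Within prefix 15286 alone, 50 IVF pairs had an r of -0.184 for block 1 and -0.566 for block 12.

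When 1 sister lacked a block, the other usually had more than expected. Block 1 was absent from exactly 1 sister in 7 IVF pairs, and the other sister had 1.09 to 1.80, above 1 in 7 of 7. Block 12 was absent from exactly 1 sister in 15 IVF pairs, and the other had 0.512 to 3.10 with a median of 1.76, above 1 in 12 of 15. No SCNT pair had a sister without either block. The IVF 2-cell embryo with the lowest coverage of block 1 lacked that block in both blastomeres, at 0.0572 and 0.0489. Its blastomere A had 63 calls in block 1 and its blastomere B had 89 where 1818 were expected. In block 12 blastomere A of that embryo had 0.0494 and blastomere B 3.10, from 51 and 5284 calls.

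**Figure D4:**
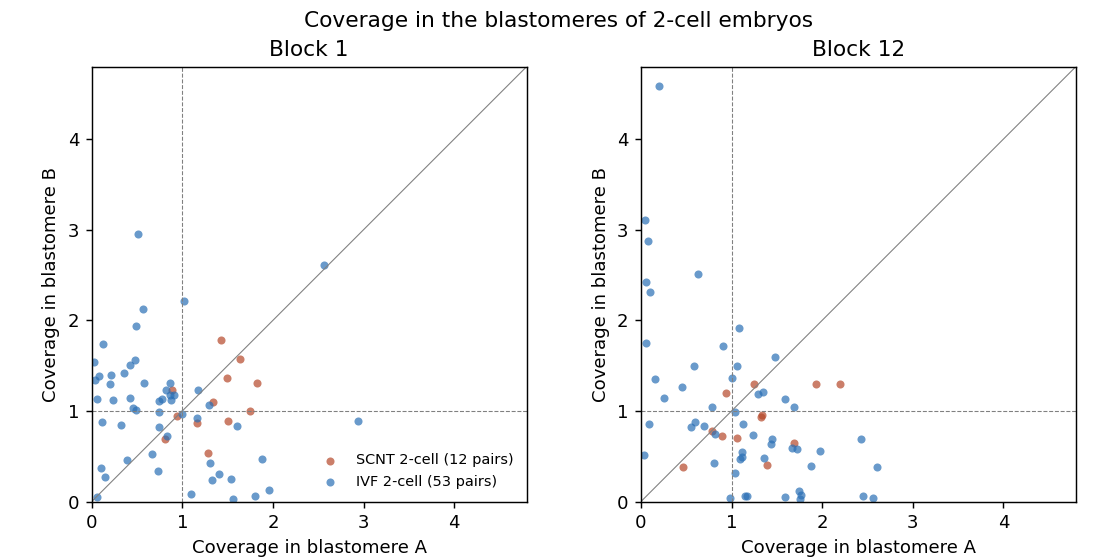
Coverage of block 1 (left) and block 12 (right) in blastomere B (y axis) against blastomere A (x axis) of 2-cell embryos, 12 SCNT pairs in red and 53 IVF pairs in blue; dashed lines mark 1 and the solid line equal values. Of the IVF pairs, 38 for block 1 and 37 for block 12 have the sisters on opposite sides of 1, against 5 and 6 of the SCNT pairs.

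The spread of coverage between blastomeres of an embryo was lower in SCNT than in IVF at 2 cells in size, but did not pass. For block 1 the mean within-embryo SD was 0.245 ± 0.182 in SCNT and 0.572 ± 0.426 in IVF (SD over embryos, n = 12 and 53, adjusted permutation p = 0.135, unadjusted p = 0.0118). For block 12 it was 0.310 ± 0.261 in SCNT and 0.777 ± 0.631 in IVF (SD over embryos, n = 12 and 53, adjusted permutation p = 0.145). By the permutation test 0 of 29 blocks passed for the spread at 2 cells (0%), and 18 had an unadjusted p under 0.05. Block 1 had the lowest mean spread of the 29 blocks in IVF 2-cell embryos, whose median block had 0.777.

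At 4 cells the spread of block 1 was 0.239 in SCNT and 0.433 in IVF, and at 8 cells it was 0.214 in SCNT and 0.291 in IVF. For block 12 it was 0.244 in SCNT and 0.387 in IVF at 4 cells, and 0.2145 in SCNT and 0.269 in IVF at 8 cells. None of these differences passed. The IVF values were lower at each later stage in both blocks, but no stage comparison passed: for block 12 the difference of 8 against 2 cells was -0.509 (adjusted permutation p = 0.135).

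Coverages of the first and second part of a block were correlated over blastomeres. The blocks were drawn from the joint opening of neighbouring rows, so such agreement is built in. Pearson's r between rows V1 to V8500 and the rest of block 1 was 0.724, and between rows V109601 to V117350 and the rest of block 12 it was 0.749, over all blastomeres used, as a description. A blastomere with 1 part under 0.1 and the other at 0.5 or more was found 2 times for block 1 and 3 times for block 12. They are described here because they are so few, after their values were seen. For block 1 they were an SCNT 2-cell blastomere, with 0.0978 in the first and 0.590 in the second part, and an IVF 5-cell blastomere, with 0.0969 and 2.199. For block 12 they were 2 IVF 2-cell blastomeres, 1 with 0.0341 and 1.59 and the other with 1.15 and 0.0880, and an IVF 4-cell blastomere with 0.0407 and 0.636. The sister of the first of these IVF 2-cell blastomeres had 1.34 and 0.930 in the parts of block 12, and the sister of the other had 1.24 and 2.05.

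Open members were shared between blastomeres of 1 embryo more than between embryos in most 8-cell embryos. The measure is the number of members open in both blastomeres of a pair, over the number expected from their depth and from each one's calls in that block. For block 1 it averaged 1.43 within and 1.04 between SCNT 8-cell embryos, and 1.78 within and 1.25 between IVF 8-cell embryos. For block 12 it averaged 1.40 within and 1.04 between SCNT 8-cell embryos, and 1.67 within and 1.21 between IVF 8-cell embryos. The within-embryo value exceeded the between-embryo mean in 18 of 21 SCNT and 12 of 14 IVF embryos for block 1, and in 17 of 21 SCNT and 13 of 14 IVF embryos for block 12. At 4 cells it did so in 13 of 16 SCNT and 11 of 18 IVF embryos for block 1, and in 11 of 16 SCNT and 15 of 19 IVF embryos for block 12. At 2 cells it did so in 7 of 12 SCNT and 28 of 45 IVF embryos for block 1, and in 10 of 12 SCNT and 16 of 38 IVF embryos for block 12. For block 12 the IVF 2-cell values were 1.11 within and 1.08 between embryos. The type difference of the within-embryo value at 8 cells was -0.347 for block 1 and -0.276 for block 12. Neither passed (permutation test, adjusted p = 0.298 for each over 6 tests). With a minimum of 4000 calls both passed, at -0.499 (adjusted permutation p = 0.0319) and -0.412 (adjusted permutation p = 0.0106). These tests did not set the within-embryo value against the between-embryo one, which was also lower in SCNT in both blocks. Whether the excess of sharing within embryos over that between embryos differed by type was not tested.

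Single members were tested together with all regions of the table. Regions open in at least 10% of the embryos of the compared stages were tested, 91045 in all. Of the members, 4269 of block 1 and 4217 of block 12 passed that filter, so most members were too rarely open to be tested. The p of each region was the larger of a score p moderated with limma and an exact binomial p. Below, limma-moderated test stands for this combined test. At 8 cells 1821 of all tested regions differed between SCNT and IVF by it (2.00%, adjusted p under 0.05). Of these, 911 were higher and 910 lower in SCNT (1.00% each). In block 1, 40 members were higher and 24 lower in SCNT, which is 1.499% of those tested. In block 12, 23 were higher and 35 lower, which is 1.38%. Both shares lie below the 2.00% of all tested regions. That set also holds commonly open regions, which members exclude by rule, so the sets are not alike. The lower shares therefore do not show that the blocks differ less between types than the rest of the table. The same limit holds for the other comparisons with all tested regions below. Shares for rarely open regions outside the blocks are not given here.

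The balance of directions at 8 cells depended on the scaling. With depth taken from the commonly open regions, 69 members of block 1 were higher and 7 lower in SCNT, and 36 and 11 in block 12. The share of higher calls was then 90.8% against 62.5% for block 1, 76.6% against 39.7% for block 12, and 83.6% against 50.0% for all tested regions. The median log2 ratio of regions with calls in both types was 0.34 with that depth and 0.02 without it over all tested regions, a shift that the members shared, at 0.69 and 0.37 in block 1 and 0.52 and 0.18 in block 12. With expected calls scaled to each blastomere's own coverage of the block, an alternative added after seeing the data, 19 members of block 1 were higher (0.445%) and 38 lower (0.890%), against 0.785% and 1.06% of all tested regions. Of the 64 members of block 1 called at first, 43 also passed under that scaling, and of the 58 of block 12, 56 did.

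The called members were spread unevenly along the blocks, as a description of the same calls that the bins sum. In rows V1 to V8500 11 were higher and 19 lower in SCNT, and in the rest of block 1 29 were higher and 5 lower. In block 12 rows V109601 to V117350 had 4 higher and 23 lower, and the rest 19 higher and 12 lower. Over all tested regions 911 were higher and 910 lower, and the numbers tested in each part of a block are not given here. The balance also depends on the scaling. With expected calls scaled to each blastomere's own coverage of the block, block 1 as a whole had 19 higher and 38 lower. The counts by part were not tested.

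Region V14500 of block 1 had the strongest higher call. It was open in 22 SCNT blastomeres of 14 of 21 embryos where 6.53 calls were expected, and in 1 IVF blastomere where 9.61 were expected. The log2 ratio of observed over expected calls was 5.02 (limma-moderated test, adjusted p = 0.000479). Region V14892 of block 1 had 14 calls in 10 SCNT embryos and 0 in IVF, where 13.2 were expected, at least 6.75-fold higher against a floor of 3 counts over the group (limma-moderated test, adjusted p = 0.00561). Among the lower ones, V110203 of block 12 had 0 calls in SCNT, where 7.27 were expected, and 21 in 10 of 14 IVF embryos, at least 4.78-fold lower against the same floor (limma-moderated test, adjusted p = 0.0118). Region V13478 of block 1 had 0 calls in SCNT and 17 in 10 IVF embryos, at least 3.82-fold lower (limma-moderated test, adjusted p = 0.0298). What these regions contain is not given.

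At 2 cells 23 of all tested regions passed (0.0253%), 22 higher (0.0242%) and 1 lower (0.00110%) in SCNT. Of the members only V12927 of block 1 passed, with 11 calls in 11 of 39 SCNT embryos where 1.71 were expected and 2 in 66 IVF embryos where 7.14 were expected (limma-moderated test, adjusted p = 0.00938). It is named because it is the single call, after its value was seen, and it did not pass with expected calls scaled to the block's own coverage (limma-moderated test, adjusted p = 0.0702). The median log2 ratio over tested members with calls in both types was 0.47 in block 1 and 0.07 in block 12, against -0.03 over all tested regions with such calls. These medians leave out members open in 1 type only, of which 5 in each block were open only in SCNT and far more only in IVF. With those included, observed calls in SCNT exceeded their share of the expected calls for 61% of the tested members of block 1 and 47.6% of those of block 12, against 43.2% of all tested regions. An unadjusted p under 0.05 was found for 4.78% of the tested members of block 1 and 2.23% of those of block 12, against 3.38% of all tested regions. At 4 cells 1 of all tested regions passed (0.00110%), and 0 members did by the larger of the moderated score p and the exact binomial p. There an unadjusted p under 0.05 was found for 3.89% of the tested members of block 1 and 2.33% of those of block 12, against 4.41% of all. By the score test alone 61 members of block 1 (1.43% of those tested) and 38 of block 12 (0.901%) passed at 4 cells, against 1.54% of all tested regions.

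In simulated data the single-region test missed most 4-fold changes after adjustment. In data simulated for the 8-cell comparison, rows of the 29 blocks open in 25 to 98 columns were changed in SCNT. With 100 rows raised 4-fold and 100 lowered to 0.25, it called 0 of the 97 and 0 of the 65 that were tested, of which 83 and 17 had an unadjusted p under 0.05. In a further simulation, added because the first recovered none, it called 50 of 50 rows raised 16-fold, 40 of 50 raised 8-fold, 5 of 48 raised 4-fold and 0 of 28 lowered to 0.25, with 35 and 7 of the last 2 kinds at an unadjusted p under 0.05. In both it called 0 of 94376 unchanged regions. Simulated calls were drawn independently, without the sharing within embryos or the absent blocks of the data. The counts of called rows, changed or unchanged, therefore need not hold for the data. The recoveries also come from mixtures in which few rows change. There the adjusted threshold is stricter than in the 8-cell data with 1821 calls. Members with an observed log2 ratio near 2 were called in the data. V8474 had 2.04 (limma-moderated test, adjusted p = 0.0335) and V8650 had 2.10 (limma-moderated test, adjusted p = 0.0396). Both were picked from the members that passed, after their values were seen. Neither passed with expected calls scaled to the block's own coverage (limma-moderated test, adjusted p = 0.0651 for V8474 and 0.0751 for V8650). Observed ratios of called members do not show how often a 4-fold change is detected.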

How the data were processed

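The submitters' processing notes list FastQC 0.10.1, Bowtie2 2.2.6 and bedtools. No source used here gives the genome build, how regions were picked, or the rule for an open call. The deposited table gives 0 or 1 for each region and blastomere, which is neither a count nor a signal, so read depth is unknown. Of 938 labelled libraries, 119 without a column were not analysed here. Column numbers 1 to 259, 500 to 729, 1001 to 1212 and 1501 to 1737 were assigned to prefixes 15243, 15244, 15286 and 15287 by subtracting 0, 499, 1000 and 1500.

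Expected calls came from a model fitted to row and column totals, in which the chance of a closed call is exp(-ab), with a factor a per blastomere and b per region. Embryo means were compared by two-sided permutation tests with 100000 resamples, or exactly where fewer arrangements exist, with Benjamini-Hochberg adjustment over all 29 blocks and 9 comparisons. The change between 2 and 8 cells was adjusted over 29 blocks and the sharing tests over 6. Tests within 1 prefix were adjusted over the 29 blocks of each comparison. Single regions were tested on calls summed per embryo with at least 1000 calls, by a quasi-Poisson score test with dispersion moderated by limma 3.58.1 in R 4.3.3. Its p was replaced by an exact binomial p where that was larger, and adjusted over all tested regions. The threshold was 0.05. Block edges were derived again from bins of 100 rows in 419 blastomeres with at least 8000 calls. By rule, at most 2 higher and 2 lower members with the largest moderated scores at 8 cells are named, and embryos highest or lowest in their group. The members, lists and tests were chosen with earlier results of these data known. Both kinds of test were tried on simulated data. For single regions, the first mixture of changes gave no calls, and a mixture with larger changes was then added; both are reported. Python 3.11.15, NumPy 2.4.6 and SciPy 1.17.1 were used. Alternatives were other minimum calls, thinning, all rows of a block, complete embryos, other expected values, single prefixes and other filters.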

Additional observations from a re-analysis of the deposited data

Results flagged for a closer look

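In groups of 4 to 10 embryos, 16 combinations of group and measure were examined for an embryo far from the others. Of these, 6 had one. The critical values used are passed about 1 in 20 times by chance for independent normal values. Most flags are of within-embryo SDs and 1 embryo gave several of them, so 6 of 16 cannot be set against that rate. In the IVF 6-cell group 1 embryo had a block 1 coverage of 2.57 where the next of 6 embryos had 1.04. Its within-embryo SD was 3.73 for block 1, where the next had 0.313, and 2.31 for block 12, where the next had 0.301. Its blastomeres ran from 0.00982 to 8.33 in block 1, and the highest had 992 member calls of block 1, or 38.8% of its total. In the IVF 3-cell group 1 embryo had an SD of 2.08 for block 1, where the next of 5 had 0.403, and another had an SD of 2.51 for block 12, where the next had 0.802. For block 1, an SCNT 5-cell embryo had an SD of 0.303 against 0.213 in the next of 5.

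Among embryos of other cell numbers, which no comparison uses, block 1 or block 12 was absent in 0 SCNT blastomeres of 20 embryos and in 7 of 74 IVF blastomeres (9.46%), which came from 4 of 18 embryos. The 0 in SCNT allows up to 2.63% of blastomeres. This difference was not tested.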

How the results depend on the processing

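Of 62 tests recomputed under the alternatives, 9 values crossed the threshold and 0 called values changed sign; 53 values called under neither setting did change sign. The block 1 difference at 2 cells was 0.362 with a minimum of 1000 calls, 0.305 with complete embryos and 0.350 without blastomeres lacking a block, and did not pass in these; with a minimum of 4000 calls it was 0.545 and passed. The change between 2 and 8 cells in block 1 passed at -0.405 when thinned, -0.353 with expected calls from rare rows and -0.414 with medians. Block 12 passed within IVF prefix 15287 for 8 against 2 cells at -0.403, with 3 2-cell embryos and the smallest p that the exact test can give. The type difference of within-embryo sharing at 8 cells, not set against sharing between embryos, passed with a minimum of 4000 calls. It was -0.499 in block 1 and -0.412 in block 12. The causes were not tested.

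By the score test alone, 2.93%, 1.43% and 3.54% of the tested members of block 1 were called at 2, 4 and 8 cells, and 1.14%, 0.901% and 2.96% of block 12, against 1.68%, 1.54% and 3.86% of all tested regions. The main shares were 0.0234%, 0% and 1.499% in block 1, and 0%, 0% and 1.38% in block 12. Here and below, all tested regions also hold commonly open ones, which members exclude by rule, so the sets are not alike. With a filter at 25% of embryos, which leaves fewer regions tested, 7.60% of block 1 (13 members) and 4% of block 12 (8 members) were called at 8 cells, against 8.15% of all tested regions, and 0% of block 1 at 2 cells. With expected calls scaled to the block's own coverage 0% of block 1 passed at 2 cells. That scaling, and leaving out recurring embryo numbers, the 5 most similar libraries or embryo 35, were chosen after seeing the data. No paired analysis was possible because the groups hold different embryos, and a shared blastomere name does not link them. The number of open calls limits precision, and read depth is unknown.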

Other observations

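The SCNT embryos of 12 to 16 cells, which enter no comparison, had block 1 coverage of 0.683 to 0.877 with a median of 0.793 over 6 embryos. All 6 values were below 1, whereas 14 of 21 SCNT 8-cell embryos were above 1. In block 12 they ran from 0.712 to 0.962 with a median of 0.838. None of their blastomeres lacked either block. The only IVF embryo labelled 13-cell had 0.859 for block 1 and 0.953 for block 12.

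In 2-cell embryos 71.3% of block 1 members were open at least once in SCNT and 94.9% in IVF. For block 12 these shares were 66.6% in SCNT and 96.2% in IVF. In the other 27 blocks they were 63.1% in SCNT and 94.6% in IVF. All 2-cell columns were counted here, without the minimum of calls, and SCNT had fewer of them than IVF. Block 1 members had 25888 calls in these SCNT columns and 78393 in the IVF columns. Block 12 members had 20606 and 82874. A share of rows open at least once rises with columns and calls, so these shares cannot compare accessibility between the types.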
